A study of Mus musculus with 4 samples.

Results

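Transcription of 8 genes of cholesterol synthesis and its control was followed in double positive (DP) thymocytes, which carry both CD4 and CD8 and precede the mature T cells, with and without the chromatin protein Tox4. The 8 genes were Srebf1, Srebf2, Insig1, Hmgcs1, Idi1, Fdft1, Sqle and Cyp51, taken by name from the 24984 genes of the deposited table. All 8 reached a mean of 1 CPM (a gene's fragments scaled to the library total) and were tested. TTchem-seq, which labels RNA during a short pulse of 4-thiouridine and sequences the labelled fragments, was carried out on 2 wild-type (WT) and 2 conditional knockout (cKO) libraries. Both groups carried floxed Tox4 alleles on a C57BL/6 background (labelled Tox4;F/F for WT), and the cKO mice also carried a Cre transgene (labelled Tox4;F/F;Lck+). Per the study's methods, Cre was driven by the proximal Lck promoter, which is active in early thymocytes, and removed exons 4 to 6. Per the same methods, the mice were littermates of 6 to 8 weeks matched for sex. The methods describe DP cells purified with beads against CD4, which can also bind CD4 single positive cells, for other assays, and how the cells of these libraries were obtained was not stated. The cells were kept for 0.5 h in fresh medium before labelling. Whether a library held 1 mouse or a pool was not stated, so p-values measure the spread between these libraries.

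Cells make cholesterol from acetyl-CoA through the mevalonate pathway, and the SREBP transcription factors, encoded by Srebf1 and Srebf2, switch on its enzymes when sterols in the endoplasmic reticulum run low. Insig proteins hold the SREBP precursor and its escort Scap in the endoplasmic reticulum when sterols are abundant. Oxysterols activate the LXR receptors, which promote export of cholesterol through Abca1 and Abcg1 and also raise Srebf1 transcription, and dividing T cells are known to raise sterol synthesis.

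The upstream sequences of the genes on which the results turn are shown first, because SREBPs act through short sites near the starts of their targets. RefSeq (build GRCm38.p6) held promoter entries for 6 of the 8 genes, with 8 promoters among them, and Sqle and Fdft1 are named only. The 250 bases before each start were searched on both strands for the sterol element core TCACNCCAC, the E-box CACGTG, the CCAAT box CCAAT, the GC box GGGCGG and the nuclear receptor site AGGTCA, and matches stand in capitals. Srebf1, on the minus strand, has 3 annotated starts. The windows of the inner starts, chr11:60220628-60220877 and chr11:60210472-60210721, are shown, and that of the outermost, at 60222581, which lies in the exon of a predicted transcript, is not. Those of Insig1 and Hmgcs1, on the plus strand, were chr5:28071162-28071411 and chr13:119690101-119690350. Each sequence is written 5′ to 3′.
Srebf1, start at 60220627: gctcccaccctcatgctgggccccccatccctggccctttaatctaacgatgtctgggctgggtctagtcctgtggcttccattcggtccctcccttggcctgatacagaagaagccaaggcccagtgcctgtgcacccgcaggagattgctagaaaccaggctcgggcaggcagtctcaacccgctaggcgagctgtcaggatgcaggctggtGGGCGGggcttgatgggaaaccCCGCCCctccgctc
Srebf1, start at 60210471: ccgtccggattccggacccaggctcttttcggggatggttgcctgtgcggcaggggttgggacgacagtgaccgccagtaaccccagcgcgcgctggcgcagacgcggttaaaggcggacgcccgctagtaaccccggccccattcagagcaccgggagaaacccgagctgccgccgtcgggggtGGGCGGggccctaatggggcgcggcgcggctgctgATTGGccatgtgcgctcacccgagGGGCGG
Insig1: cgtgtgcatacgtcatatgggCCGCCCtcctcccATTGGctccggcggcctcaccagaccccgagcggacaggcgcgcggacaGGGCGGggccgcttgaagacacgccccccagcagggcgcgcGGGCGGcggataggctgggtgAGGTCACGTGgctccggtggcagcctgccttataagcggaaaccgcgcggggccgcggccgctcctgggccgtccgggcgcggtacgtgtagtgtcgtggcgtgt
Hmgcs1: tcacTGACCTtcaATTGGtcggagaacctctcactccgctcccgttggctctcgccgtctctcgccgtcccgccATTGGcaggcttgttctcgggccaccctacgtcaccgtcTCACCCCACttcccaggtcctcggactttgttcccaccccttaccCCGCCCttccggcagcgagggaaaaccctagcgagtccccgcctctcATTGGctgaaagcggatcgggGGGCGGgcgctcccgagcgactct
The sterol element core was found only in Hmgcs1 among the 8 promoters, with its first base 137 bases before the start, and in 1.05% of the 32851 promoters of the RefSeq table. The E-box was found only in Insig1, 101 bases before the start and overlapping an AGGTCA match at 105, and in 6.02% of all promoters. AGGTCA was also found in Hmgcs1, and in 14% of all promoters. CCAAT and GC boxes were each present in 7 of the 8 promoters, against 33.8% and 32.7% of all promoters. These matches describe the letters of the windows and show no binding.

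The libraries held 38429786 to 48690591 fragments. Counts covered whole genes, so introns, which made up 57.8% to 92.1% of the 8 gene spans, contributed most of the length. Tox4 itself, the deleted gene, was at 74.0 and 70.3 CPM in WT and lower in cKO, at 59.3 and 57.2 CPM. Its log2 fold change was −0.31 (SE 0.0998, DESeq2 adjusted p = 0.0453). With edgeR's quasi-likelihood test the adjusted p of Tox4 was 0.153. The DP markers Cd4 and Rag1 were high in all 4 libraries, at 621 to 1169 CPM. Defining markers of erythroid cells summed to at most 0.729 CPM, those of stroma to 2.21 to 3.41 CPM and those of B cells to 8.86 to 10.1 CPM, most of it Ebf1. WT replicate 1 stood apart in 2 ways: the female transcript Xist was at 172 CPM there and at most at 2.36 CPM elsewhere, which goes against the stated matching for sex, and all 15 proliferation genes listed were lower there than in WT replicate 2.

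The 8 genes were transcribed at very different levels. Per kb of gene, the regulators stood highest, with a mean over the 4 libraries of 7.13 CPM per kb for Srebf1 (range 6.18 to 8.28), 4.87 for Srebf2 (4.74 to 5.04) and 4.13 for Insig1 (3.62 to 4.53). The enzymes stood lower, with Hmgcs1 at 0.872 CPM per kb (0.811 to 0.913), Fdft1 at 0.849 (0.780 to 0.888), Cyp51 at 0.432 (0.414 to 0.475), Idi1 at 0.432 (0.394 to 0.505) and Sqle at 0.366 (0.333 to 0.393). The ranges of Hmgcs1 and Fdft1 overlapped, as did those of Cyp51 and Idi1, so these neighbours were not separated. Of the 11625 genes tested (mean CPM 1 or more), 91.1% lay below Srebf1 on this scale and 20.8% below Sqle.

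**Figure D1:**
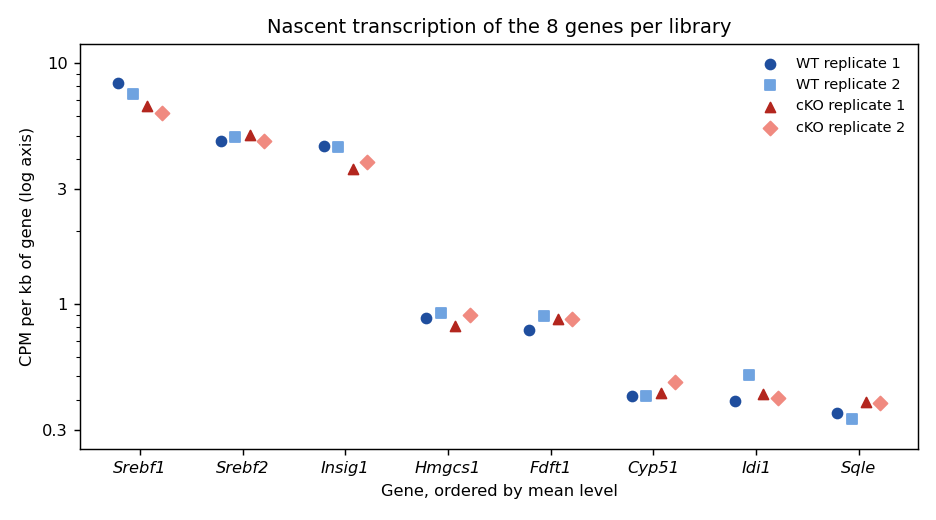
CPM per kb of gene on a log axis for the 8 genes, ordered by mean level, with 1 point per library (blue WT, red cKO). The 3 regulators lie at 3.62 CPM per kb or more in every library, and the 5 enzymes lie at 0.913 or less.

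Of the 8 genes, Srebf1 alone met the study's criteria, with lower transcription in cKO, and this call depended on the test. These require a DESeq2 adjusted p under 0.05, a change of 1.2-fold or more either way, and 1 CPM or more on average. Across all tested genes they called 3.71%, with 2.14% increased and 1.57% decreased in cKO. With edgeR's quasi-likelihood test, 0.499% of genes were called and none of the 8 (lowest adjusted p 0.168), and 2 of the 8 had an unadjusted DESeq2 p under 0.05, as did 13.5% of all tested genes. The median log2 fold change over the 8 genes was −0.03, beside 0.00 over all tested genes, with 4 genes above 0 and 4 below.

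Srebf1 (chr11:60199084-60222581, minus strand) encodes SREBP-1, which chiefly drives fatty acid synthesis. It was at 195 and 175 CPM in WT and at 156 and 145 CPM in cKO. Both cKO libraries lay below both WT libraries, as they did for 24% of all tested genes. The log2 fold change was −0.30 (SE 0.0876, 95% interval −0.47 to −0.13, DESeq2 adjusted p = 0.0209), so that Srebf1 transcription fell by 18.7%. The adjusted p was 0.168 with edgeR, 0.00621 with edgeR without its filter on low counts, which called 6.68% of genes, and 0.159 with limma voom. It was 0.0209 without WT replicate 2, but 0.583 without WT replicate 1, 0.340 without cKO replicate 1 and 0.776 without cKO replicate 2, with log2 fold changes from −0.37 to −0.23. In bulk RNA, fewer cells of a type and less RNA per cell cannot be told apart. The end of Srebf1 overlaps Rai1 on the other strand over 112 bp, and strand use in counting was not stated.

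Srebf2 (chr15:82147269-82204960, plus strand) encodes SREBP-2, the main activator of cholesterol synthesis. It was at 275 and 284 CPM in WT and at 291 and 274 CPM in cKO, and the groups overlapped. The log2 fold change was 0.01 (SE 0.0762, 95% interval −0.14 to 0.16, DESeq2 adjusted p = 0.979). The interval spans folds of 0.909 to 1.12 and rests on 2 libraries per group. The libraries were scaled without a spike-in, so a shift shared by all genes would not appear in it. The ratio of Srebf1 to Srebf2 CPM was 0.708 and 0.616 in WT and 0.536 and 0.531 in cKO. The WT and cKO ratios did not overlap, but the exact two-sided permutation test gave p = 0.333, the smallest value that 2 against 2 libraries allow. An intron of Srebf2 carries Mir33, whose product is known to repress Abca1, and its mature strand is shown with the seed in capitals.
mmu-miR-33-5p: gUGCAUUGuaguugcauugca
The Mir33 hairpin span held only 5.5 to 9.5 fragments per library, and mature miRNA was not measured.

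Insig1 (chr5:28071412-28078662, plus strand), the sterol-sensing anchor that is itself a target of SREBPs, was at 32.9 and 32.6 CPM in WT and at 26.2 and 28.1 CPM in cKO. Both cKO libraries lay below both WT libraries. The log2 fold change was −0.27 (95% interval −0.53 to −0.02), with an unadjusted p of 0.0371 and a DESeq2 adjusted p of 0.302, so the difference did not pass after correction. Both cKO libraries were thus lower for 2 of the 8 genes, a share near the 24% of all tested genes.

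The 5 enzymes did not pass the test in either direction. The sign of the log2 fold change turned for Hmgcs1 with cKO replicate 1 left out (0.013), for Idi1 with WT replicate 2 left out (0.077) and for Fdft1 with WT replicate 1 left out (−0.051). That of Srebf2 turned with WT replicate 1 (−0.020) or cKO replicate 1 (−0.025) left out. Hmgcs1 (chr13:119690351-119708260, plus strand), which makes HMG-CoA, was at 15.6 and 16.3 CPM in WT and at 14.5 and 16.0 CPM in cKO. Its log2 fold change was −0.07 (SE 0.170, 95% interval −0.40 to 0.27, DESeq2 adjusted p = 0.928), and the groups overlapped. Idi1 (chr13:8885606-8892396, plus strand), which interconverts the isoprenoid building blocks, was at 2.67 and 3.43 CPM in WT and at 2.86 and 2.77 CPM in cKO. It was the gene of lowest count, with 110 to 167 fragments per library, and its log2 fold change of −0.12 had the widest interval of the 8 (−0.84 to 0.60). Any change of Idi1 between 0.557-fold and 1.52-fold therefore lay within the interval.

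Fdft1 (chr14:63145151-63179578, minus strand), squalene synthase, commits the pathway to sterols. It was at 26.9 and 30.6 CPM in WT and at 29.9 and 29.7 CPM in cKO, and the groups overlapped. Its log2 fold change was 0.05 (95% interval −0.22 to 0.31). Its end overlaps Ctsb on the other strand over 773 bp.

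Sqle (chr15:59315092-59331193, plus strand), squalene epoxidase and a rate-limiting step of the later pathway, was at 5.69 and 5.36 CPM in WT and at 6.32 and 6.21 CPM in cKO. Cyp51 (chr5:4080674-4104697, minus strand), which demethylates lanosterol, was at 9.95 and 9.98 CPM in WT and at 10.2 and 11.4 CPM in cKO. In both genes the cKO libraries lay above the WT libraries, as they did for 24.9% of all tested genes. The log2 fold changes were 0.18 for Sqle (95% interval −0.32 to 0.69, DESeq2 adjusted p = 0.847) and 0.12 for Cyp51 (95% interval −0.28 to 0.51, DESeq2 adjusted p = 0.882), so neither passed the test. With cKO replicate 1 left out that of Cyp51 was 0.20, and with cKO replicate 2 left out it was 0.027. Over the 7 genes not called, adjusted p ranged from 0.302 to 0.979.

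The mean profile of the 8 genes over the 4 libraries was nearly flat. Among 8086 other genes averaging 10 CPM or more, the closest profiles were those of Ccdc127, Ice1 and Ddx39, at root mean square distances of 0.00503, 0.00619 and 0.00633 on the log2 scale. Such profiles were common, since 1183 of these genes lay within 0.05.

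The remaining genes of the pathway did not pass the test. Of 16 other cholesterol synthesis genes, 0 were called by DESeq2 or edgeR and 0 had an unadjusted DESeq2 p under 0.05. Their median log2 fold change was 0.01, and they ranged from −0.21 for Msmo1, a sterol C4 oxidase, to 0.34 for Mvd, the mevalonate pathway decarboxylase, with Lss, lanosterol synthase, at 0.28. These values depended on single libraries: with cKO replicate 1 or cKO replicate 2 left out, the log2 fold change was −0.0025 or 0.62 for Mvd, 0.43 or 0.13 for Lss and −0.094 or −0.33 for Msmo1. Without WT replicate 2 that of Msmo1 was −0.13.

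Of the 9 genes of SREBP processing and sterol uptake, 8 were tested, and 0 were called by DESeq2 or edgeR. Their median log2 fold change was −0.07, and 3 of the 8 had an unadjusted DESeq2 p under 0.05, beside 13.5% of all tested genes. Mbtps1, the site-1 protease that cuts SREBPs, was at 557 and 546 CPM in WT and at 471 and 496 CPM in cKO (log2 fold change −0.19, DESeq2 adjusted p = 0.113). Stard4, a sterol carrier, had a log2 fold change of −0.55 (DESeq2 adjusted p = 0.340). The last of the 3 with an unadjusted p under 0.05 was Scap, the SREBP escort, at 108 and 109 CPM in WT and 93.7 and 98.5 CPM in cKO.

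Among SREBP targets of fatty acid synthesis, of which 9 of 10 were tested, 1 rose and 1 fell by the DESeq2 criteria. Of all tested genes, 3.71% were called. Fasn, fatty acid synthase, was at 128 and 122 CPM in WT and at 103 and 98.3 CPM in cKO (log2 fold change −0.31, SE 0.0872, DESeq2 adjusted p = 0.0130). Acaca, acetyl-CoA carboxylase, which supplies the substrate of Fasn, was at 94.3 and 86.7 CPM in WT and at 113 and 113 CPM in cKO (log2 fold change 0.32, SE 0.0909, DESeq2 adjusted p = 0.0160). Both cKO libraries lay below both WT libraries for Fasn, as for 24% of all tested genes, and above them for Acaca, as for 24.9%. These called genes moved in opposite directions. Neither passed with edgeR (adjusted p = 0.122 and 0.129), and neither passed when any 1 library was left out, with DESeq2 adjusted p of 0.0808 to 0.685 for Fasn and 0.0823 to 0.630 for Acaca. The median over the list was −0.13. Fads2, a fatty acid desaturase, was at 7.84 CPM in WT replicate 1 against 17.9 to 18.5 CPM in the other 3 libraries, and its log2 fold change of 0.44 was not called. With WT replicate 1 left out it was −0.059, and with WT replicate 2 left out it was 1.197. Acss2 and Me1, which supply acetyl-CoA and NADPH, had log2 fold changes of −0.25 and −0.36 and were not called. Without cKO replicate 1 that of Acss2 was −0.64, and without cKO replicate 2 it was 0.064.

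Of the 9 genes of LXR and cholesterol efflux, 7 were tested, and 2 fell by the DESeq2 criteria. Of all tested genes, 1.57% were called as decreased. Abca1, the exporter of cholesterol to lipid-poor lipoprotein, was at 405 and 271 CPM in WT and at 141 and 152 CPM in cKO. Both cKO libraries lay below both WT libraries, as for 24% of all tested genes. The log2 fold change was −1.21 (SE 0.287, DESeq2 adjusted p = 0.00163, edgeR adjusted p = 0.0409). Its log2 fold change was −1.47 with WT replicate 2 left out and −0.90 with WT replicate 1 left out, and the call was lost without cKO replicate 1 (DESeq2 adjusted p = 0.454) or cKO replicate 2 (0.394). Mylip, a ubiquitin ligase induced by LXR, was at 216 and 178 CPM in WT and at 145 and 135 CPM in cKO (log2 fold change −0.49, SE 0.0998, DESeq2 adjusted p = 8.41e-05, edgeR adjusted p = 0.107). Its call was lost without WT replicate 1 (DESeq2 adjusted p = 0.0643) or cKO replicate 2 (0.149).

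Abcg1, the other LXR-driven exporter, was at 1268 and 911 CPM in WT and at 840 and 806 CPM in cKO (log2 fold change −0.41, DESeq2 adjusted p = 0.446) and was not called. The value depended on which WT library was kept: the log2 fold change was −0.16 without WT replicate 1 (DESeq2 adjusted p = 0.744) and −0.62 without WT replicate 2 (DESeq2 adjusted p = 2.94e-11). With the replicate number as a block the adjusted p was 0.0394 in DESeq2 and 0.235 in edgeR. The receptor gene Nr1h2 had a log2 fold change of −0.22 and Npc1, which moves cholesterol out of lysosomes, one of −0.15. Without WT replicate 2 they were −0.12 and −0.30, and without WT replicate 1 that of Npc1 was 0.015. Soat1, which esterifies cholesterol, was at 154 and 168 CPM in WT and at 157 and 173 CPM in cKO, and its groups overlapped. The median over the list was −0.22. Myeloid cells also transcribe Abca1, and the summed level of 5 myeloid markers was 4.23 and 3.64 CPM in WT and 2.46 and 3.57 CPM in cKO. Of these, Lyz2 was at 1.34 and 1.21 CPM in WT and at 0.312 and 0.679 CPM in cKO (log2 fold change −1.36). Csf1r was at 0.891 and 0.534 CPM in WT and at 0.156 and 0.327 CPM in cKO (log2 fold change −1.56), while Itgam was at 1.06 and 1.07 CPM in WT and at 1.51 and 1.53 CPM in cKO. Both cKO libraries lay below both WT libraries for Lyz2 and Csf1r, as they did for 24% of all tested genes. The groups overlapped for Adgre1, at 0.903 and 0.822 CPM in WT and 0.481 and 0.981 CPM in cKO. The 95% intervals were −2.72 to −0.0054 for Lyz2 and −3.38 to 0.27 for Csf1r. Neither Lyz2 nor Csf1r reached the mean of 1 CPM needed for a call. Cd14 was at 0 in at least 1 library, no marker exceeded 1.53 CPM, and the part of these cells in the result was not tested.

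**Figure D2:**
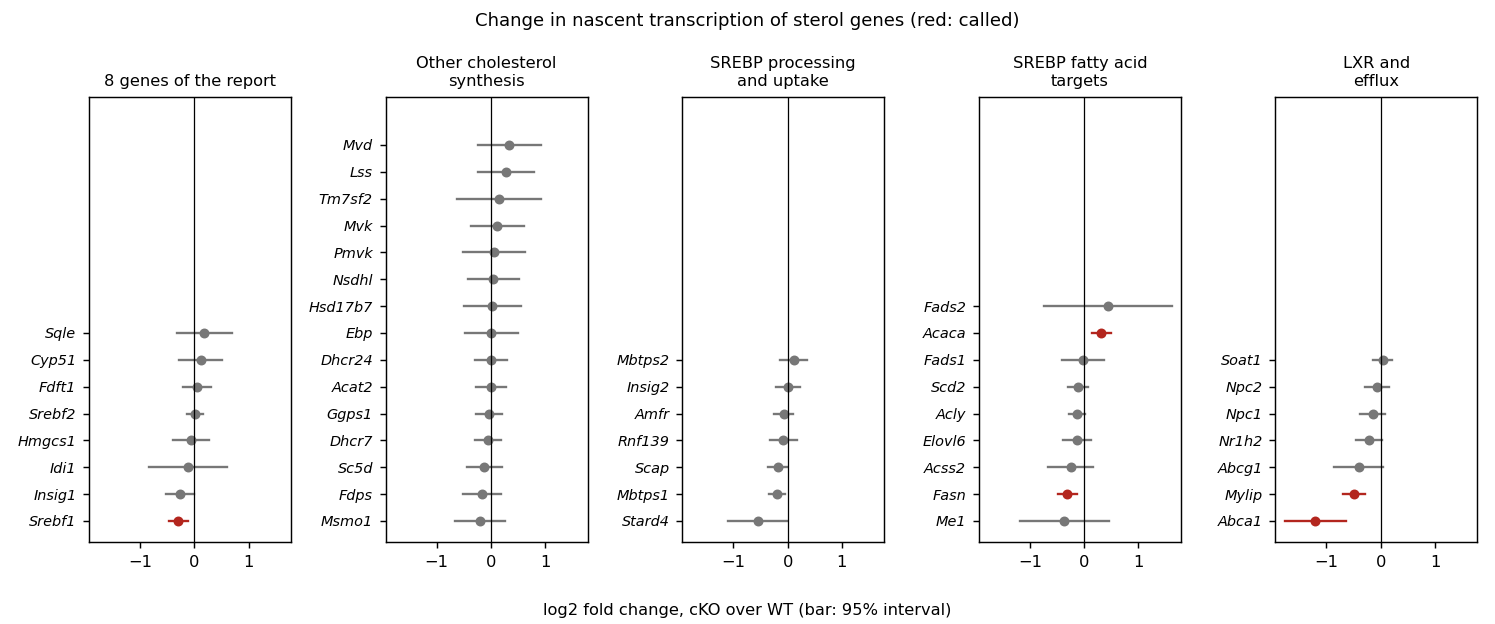
Log2 fold change, cKO over WT, of tested genes in the 8-gene set and the 4 related lists, without those not reported here, with bars for the 95% interval of the DESeq2 fit. The 5 genes in red met the DESeq2 criteria: Srebf1, Fasn, Acaca, Mylip and Abca1, at −0.30, −0.31, 0.32, −0.49 and −1.21.

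**Figure D3:**
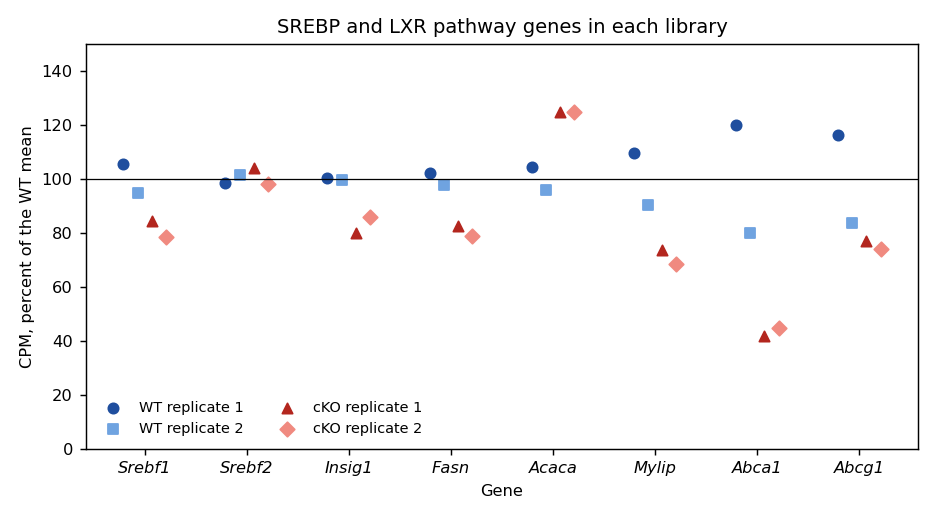
CPM of 8 SREBP and LXR pathway genes in each library, as a percent of the mean of the 2 WT libraries (line at 100). Both cKO libraries lie at 84.3% and 78.7% of the WT mean for Srebf1 and at 41.7% and 44.8% for Abca1, while the 4 Srebf2 values overlap.

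Markers of cell state differed between the libraries as well. Proliferation genes had a median log2 fold change of 0.35, with 15 of 15 above 0 and 0 called by DESeq2 or edgeR (4 of 15 had an unadjusted DESeq2 p under 0.05, beside 13.5% of all tested genes). Their summed level was 595 CPM in WT replicate 1 and 861 to 988 CPM in the other 3 libraries. Among 8 DP markers, 4 had a log2 fold change above 0 and 4 below, with a median of −0.02. Cd8a (log2 fold change −0.54, DESeq2 adjusted p = 1.21e-05, edgeR adjusted p = 0.108) and Rag1 (−0.31, DESeq2 adjusted p = 0.0499, edgeR adjusted p = 0.291) fell by the DESeq2 criteria. These criteria called 3.71% of all tested genes. Among 6 genes of mature single positive cells, Il7r rose and Ccr7 fell, and among 9 immediate early and stress genes, Jun and Egr1 fell by the same criteria. None of these 6 genes passed with edgeR, where the adjusted p of the last 4 ranged from 0.0932 for Egr1 to 0.197 for Jun. The part of these shifts in the sterol gene values was not tested.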

How the data were processed

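Reads were trimmed (fastp 0.13.1) and aligned to mouse build GRCm38 (STAR 2.7.9a) by the authors before genes were counted; the submitters' processing notes also name featureCounts 1.6.1. The authors deposited expected counts of fragments for each gene, of which 8.61% were fractional, and the deposited gene lengths included introns. The labels' extraction text describes poly(A) selection, whereas the study's methods describe ribosomal RNA depletion of biotin-purified RNA. A yeast spike-in was added, and the table held 0 yeast rows.

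Before fitting, the expected counts were rounded. CPM were computed from the deposited totals, and levels of different genes were compared per kb of deposited length. The DESeq2 1.42.0 Wald test (R 4.3.3, default size factors, no covariates) was fitted on all genes with Benjamini-Hochberg adjustment, following the study's methods. Intervals of 95% are the log2 fold change with its SE under the normal distribution. Alternatives used edgeR 4.0.16 and limma 3.58.1. The fitting steps were tested on simulated data.

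The named genes were the 8 genes, Tox4, every called gene and the 3 largest changes of each related list, and the 3 closest profiles; some genes of the lists enter the counts but are not reported here by name. Scap, Soat1 and the marker genes named lie outside that rule and were chosen after their values were seen. The 8 genes and the lists were chosen with earlier results of these data known. Fragments carry no molecular identifiers, so they are not independent molecules.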

Additional observations from a re-analysis of the deposited data

How the results depend on the processing

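The counts of calls depended on the test. DESeq2 called 431 genes in all and 193 with the replicate block, edgeR's quasi-likelihood test 58 (82 filtered on mean CPM, 28 with the block, 777 without a filter on low counts) and limma voom 61; with 1 library left out DESeq2 called 89 to 446. Of the 8 genes, 1 was called by DESeq2, but 0 by edgeR, by edgeR filtered on mean CPM, by edgeR with the replicate block, by limma voom and by DESeq2 with the replicate block, and 1 by edgeR without a filter on low counts; leaving out 1 library gave 0 to 1. For the fatty acid targets the 2 calls became 0 under the same fits that gave 0 above, stayed 2 with edgeR without a filter, and were 0 to 1 with 1 library left out, the 1 being Fads2 without WT replicate 2. For the LXR and efflux genes the 2 calls became 1 with edgeR, with edgeR filtered on mean CPM and with limma voom, 0 with edgeR and the replicate block, 3 (Abcg1 added) with DESeq2 and the replicate block and with edgeR without a filter, and 0 (without cKO replicate 2) to 3 (without WT replicate 2, Abcg1 added) with 1 library left out. The edgeR fits with the block, with the mean CPM filter and with no filter were chosen after seeing the data. The median over the 8 genes ranged from −0.079 to 0.059 with 1 library left out.

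Whether the replicate numbers pair the libraries was not settled. The correlation of deviations between same-numbered libraries was −0.03 over 11625 genes. The ribosomal RNA precursor Rn45s, however, held 2.71% and 2.44% of fragments in WT replicate 1 and cKO replicate 1. It held 4.30% and 4.05% in WT replicate 2 and cKO replicate 2. With the replicate block, the DESeq2 adjusted p of Srebf1 was 0.176.

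With 1 library left out, where the lone library is assumed to vary like the other group, the log2 fold changes of 8 named genes changed sign, among them the largest rises of their lists, Mvd and Fads2. They ranged from −0.14 to 0.013 for Hmgcs1, −0.025 to 0.050 for Srebf2, −0.051 to 0.15 for Fdft1, −0.30 to 0.077 for Idi1, −0.0025 to 0.62 for Mvd, −0.059 to 1.197 for Fads2, −0.64 to 0.064 for Acss2 and −0.30 to 0.015 for Npc1. Tox4 was not called by edgeR, limma voom, with the block or with any 1 library left out. In DESeq2 with all libraries kept, the Tox4 call was also lost when scaling by library totals (adjusted p = 0.0511). It was lost as well with independent filtering off (DESeq2 adjusted p = 0.0821). The cause of the sign changes was not tested. Under the alternatives that kept all libraries, 245 log2 fold changes of named genes kept their direction and side of the threshold. Another 28 no longer passed it, 2 newly passed it and 0 reversed. All 28 came from genes called in the main DESeq2 fit. Most of the 245 came from genes that had no call to lose. Some alternatives reused the same fitted log2 fold change, so its direction could not reverse.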
